A study of Mus musculus with 15 samples.

Results

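The comparison set 4 arrays of nintedanib-treated mammary tumours against 4 arrays of B20-treated mammary tumours, chosen by their titles from a series of 15 arrays. All tumours came from female MMTV-PyMT mice, which carry the polyoma middle T oncogene under a viral promoter active in mammary epithelium, so that carcinomas arise in the gland itself. Nintedanib was given by gavage at 85 mg per kg per day, and B20 (B20-4.1.1) by injection into the abdomen at 5 mg per kg, 2 times per week, both from 7 weeks of age. Nintedanib and B20 arrays were both taken at the end of treatment, as were 3 vehicle arrays. A further 4 arrays (T0) precede treatment. They share the fit's estimate of the spread, and also entered the filter on dim probes, the choice of each gene's probe and the classes of level. The T0 arrays lay on other slides and scans than the end arrays, and T0 replicate 3 had 84.2% of probes well above background. They widen the spread of some genes. For Fgf2 the standard deviation was 1.63 on T0 arrays, against 0.15 on nintedanib and 0.37 on B20 arrays. T0 replicate 4 carries a vehicle label beside the untreated one and was placed by its title. Whether each array stands for its own mouse is not stated, so the p-values measure only how these samples vary, which may be technical.

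The agents block the same axis at different points. VEGF-A is released mostly by hypoxic tumour cells and stroma and drives vessel growth through the receptor kinase KDR (VEGFR2) on endothelium. B20 is an antibody that binds VEGF-A in the extracellular space and leaves the receptors untouched. Nintedanib is a small molecule that enters cells and occupies the ATP pocket of the VEGF receptors and also of the FGF and PDGF receptors, which act in fibroblasts, pericytes and epithelium, and of a few further kinases such as FLT3, LCK, LYN and SRC. The readout was total RNA of whole tumour pieces, so fewer cells of a type and less RNA per cell cannot be told apart.

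Epithelial identity was plain in every sample. Krt8, Krt18 and Epcam, which encode keratins and an adhesion protein of luminal epithelium, were well above background on all 8 arrays. The mean level of the 17 luminal markers lay between 2.72 and 2.96 on nintedanib arrays and between 2.43 and 3.03 on B20 arrays. Levels throughout are log2 processed signal relative to the array's own 75th percentile, and differences are nintedanib minus B20 on the log2 scale with the standard error of the fit. The nintedanib arrays were the brighter ones before scaling: their 75th percentiles were 8.652 to 9.334 on the log2 scale, against 8.257 to 8.602 for B20, with no overlap, while the vehicle arrays spanned 8.424 to 9.096. The part of this brightness in the results was not tested beyond the alternative settings given beside them.

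No gene separated the agents after correction for multiple testing. Of 28070 genes and unnamed transcripts tested with limma, 0 passed a Benjamini-Hochberg adjusted p of 0.05 (0% called), and the lowest adjusted p was 0.519. At an unadjusted p under 0.05, 1094 genes were higher (3.9% of those tested) and 1534 lower (5.46%) in nintedanib tumours, so the differences below are descriptions of size and spread. The 4 nintedanib arrays lay above all 4 B20 arrays for 596 genes (2.12%) and below them for 1009 (3.59%). With array brightness as a covariate, an alternative chosen after seeing the data, the counts at an unadjusted p were 390 higher and 579 lower. The median difference over all genes was -0.04, and 44.7% of genes were higher in nintedanib tumours. The balance of the counts at an unadjusted p moved with the scaling: 1242 higher and 1032 lower under quantile normalization, 1406 and 1254 in the authors' table, 466 and 381 with median scaling, and 904 and 3150 after normexp background correction. Normexp also shifted the median of all genes to -0.16. Over 10 equal classes of genes by level, this median ran from -0.30 in the dimmest to -0.01 in classes 7 and 8, so no single value serves as reference for all genes.

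Among the genes with the lowest p on the higher side were secreted and matrix proteins. Comp, which encodes a cartilage and tendon matrix glycoprotein also made by activated fibroblasts, stood at 1.40, 1.12, -0.29 and 1.01 on the nintedanib arrays, against -1.34, -1.51, -0.49 and -0.97 on the B20 arrays. Its lowest nintedanib array was above the highest B20 array, and the difference was 1.89 ± 0.39 (SE), 3.7-fold, with an unadjusted p of 0.000275 and an adjusted p of 0.519. The vehicle arrays stood at -0.60, -1.74 and -0.52, within or near the B20 range. Serpina3n, an acute-phase protease inhibitor, gave -0.63, 0.17, 0.36 and 0.75 in nintedanib tumours, against -1.31, -1.50, -1.73 and -3.16 in B20 tumours. The groups did not overlap, the difference was 2.09 ± 0.46 (4.25-fold), and vehicle tumours spread from -2.43 to -0.68. For both genes the B20 minus vehicle difference was close to 0, at -0.12 ± 0.42 for Comp and -0.15 ± 0.49 for Serpina3n, while the nintedanib minus vehicle difference was 1.77 ± 0.42 and 1.94 ± 0.49. These 2 contrasts share the vehicle arrays.

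**Figure D1:**
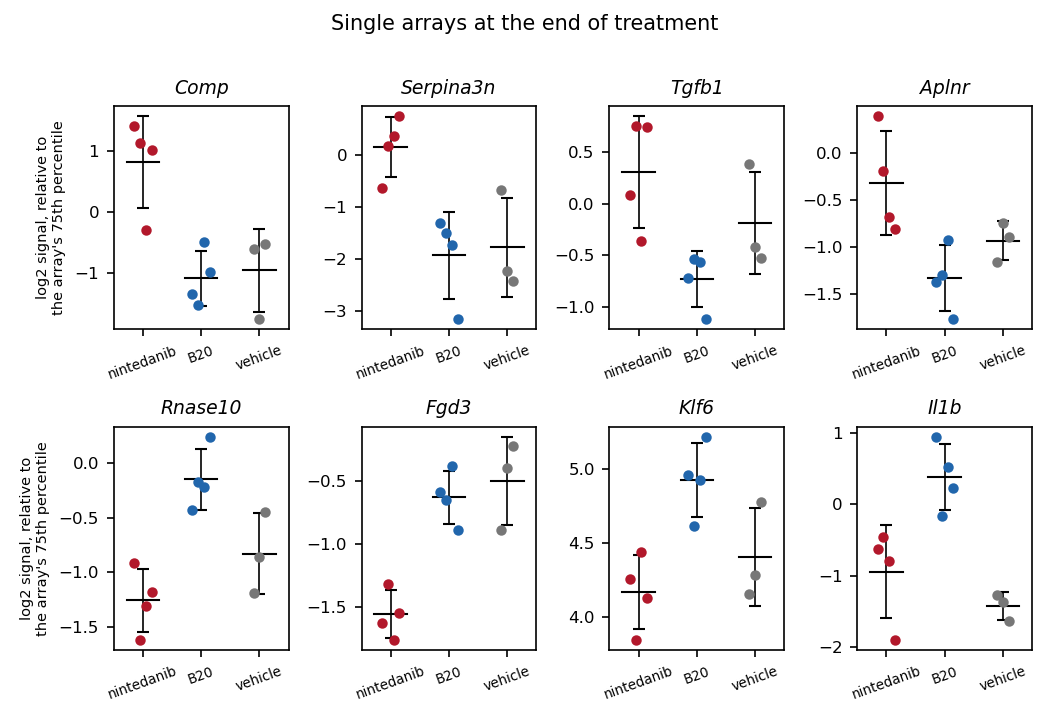
Log2 signal relative to each array's 75th percentile (vertical axes) for 8 genes in nintedanib (red), B20 (blue) and vehicle (grey) tumours. Each point is 1 array, and bars are mean ± SD. Nintedanib and B20 points do not overlap in any of the 8 panels, and the vehicle points lie with the B20 points for Comp and Fgd3.

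Tgfb1, the gene of the cytokine TGF-beta 1, was at 0.08, 0.75, -0.36 and 0.74 with nintedanib, against -0.72, -0.53, -0.56 and -1.11 with B20. The difference was 1.03 ± 0.26 without overlap, and the vehicle arrays (0.38, -0.42 and -0.52) held 1 value inside the nintedanib range and 2 in the gap between the groups. Skil, which encodes SnoN, an inhibitor of TGF-beta signalling that is itself induced by the pathway, ran the other way, with 2.56, 2.1, 2.5 and 1.99 in nintedanib tumours against 2.85, 3.03, 2.99 and 3.30 in B20 tumours. Its difference was -0.76 ± 0.18, and a second probe gave -0.64. Itgav, the integrin subunit that releases latent TGF-beta, was also lower on all nintedanib arrays (-0.79 ± 0.24). Over the 20 measured genes of EMT and TGF-beta response, 9 were higher and 11 lower with a median of -0.06, and 1 was higher and 2 lower at an unadjusted p under 0.05, beside 3.9% and 5.46% of all genes.

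Trim14, an adaptor of antiviral signalling, differed by 1.29 ± 0.29, and was above background on 3 of 4 B20 arrays and on all nintedanib arrays, but by 0.24 after normexp correction and 0.43 in the authors' table. Sec14l1 (1.22 ± 0.29), Arhgap31 (1.14 ± 0.28), a GTPase-activating protein for Cdc42 and Rac1, Pgap6 (0.97 ± 0.22), Fbf1 (0.90 ± 0.22), Zfp219 (0.84 ± 0.20) and M1ap (0.80 ± 0.19) followed. After normexp correction Pgap6 gave 0.61, Zfp219 0.50 and M1ap 0.34. Serpina1e, one of the near-identical alpha-1-antitrypsin genes, differed by 1.11 ± 0.24 on its brighter probe and by 0.05 on another, so its value is uncertain. Zfp385b, a zinc finger gene, was well above background on 4 nintedanib arrays, 0 B20 arrays and 1 vehicle array, so that it was tested only through the groups where it is brighter. On the processed signals it was 7.09-fold higher in nintedanib tumours (adjusted p = 0.519, limma), which is a point estimate and not a lower bound. This size depended on the background correction, since the log2 difference of the same probe was 0.60 after normexp correction and 0.81 in the authors' table, and another probe gave 0.84. Smim6 was well above background on 3 nintedanib arrays and on 0 B20, 0 vehicle and 0 T0 arrays. It was thus tested only through the group where it is brighter. Smim6 was 3.48-fold higher after dim arrays were raised to their lowest signal well above background, again a point estimate. Its log2 difference was only -0.06 after normexp correction and 0.24 in the authors' table. Under normexp the median was -0.16 for all genes and -0.30 in the dimmest class of level.

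The genes with the lowest p on the lower side included housekeeping factors at high levels and a few regulators. Rnase10, a secreted protein of the ribonuclease A family, was at -0.92, -1.62, -1.31 and -1.18 in nintedanib tumours and at -0.43, -0.17, -0.22 and 0.24 in B20 tumours, a difference of -1.11 ± 0.22. Fgd3, an exchange factor for Cdc42, was at -1.63, -1.32, -1.76 and -1.55 with nintedanib, against -0.59, -0.65, -0.38 and -0.89 with B20. The groups of both genes were apart. For Fgd3 the vehicle arrays (-0.89, -0.40 and -0.22) lay with B20, and the nintedanib minus vehicle difference was -1.06 ± 0.23. Adam10, the protease that sheds Notch and growth factor ligands, differed by -0.67 ± 0.16. Plaa (-0.68 ± 0.14), Strn3 (-0.77 ± 0.18), Ptp4a2 (-0.66 ± 0.16), Zfand5 (-0.59 ± 0.15), Fbxo33 (-0.62 ± 0.16), Canx (-0.54 ± 0.14) and Prps1l3 (-0.56 ± 0.14) also had every nintedanib array below every B20 array. The other probe of Plaa gave 0.02. Vmn1r234, a pheromone receptor gene, was not well above background on any nintedanib array and was so on only 2 B20 arrays. On the processed signals it was 2.47-fold lower in nintedanib tumours (adjusted p = 0.519, limma), again a point estimate and not a lower bound. Its log2 difference was -0.45 after normexp correction and -0.16 in the authors' table.

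Most markers of blood vessels had higher values with nintedanib, though none passed the adjusted test. Of 28 measured endothelial genes, 22 were higher and 6 lower, with a median difference of 0.31, against -0.04 over all genes. At an unadjusted p under 0.05, 7 of the 28 were higher and 1 lower, beside 3.9% and 5.46% of all genes. All nintedanib arrays lay above all B20 arrays for 6 of them, beside 2.12% of all genes. Of 16 genes of angiogenic endothelium, 13 were higher, 5 at an unadjusted p under 0.05 and 1 lower at that level, with a median of 0.39. Both medians kept their sign in all 29 alternatives, between 0.19 and 0.44 for endothelium and between 0.21 and 0.52 for angiogenic endothelium. The mean level of the endothelial list overlapped, at -0.64, 0.03, -0.25 and -0.39 on nintedanib arrays and -0.57, -0.64, -0.44 and -0.87 on B20 arrays. That of the angiogenic list did not, at 0.07 to 0.47 against -0.36 to -0.03. Set against vehicle, the endothelial median was -0.14 with nintedanib and -0.39 with B20, and the angiogenic median was 0.10 with nintedanib and -0.33 with B20.

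Plvap, which forms the diaphragms of fenestrated capillaries, was at 0.64, 2.08, 0.85 and 1.58 in nintedanib tumours and at 0.22, 0.25, 0.60 and 0.01 in B20 tumours (1.02 ± 0.32, and 1.17 on another probe). Tie1, an endothelial receptor kinase, was at -2.14, -1.28, -2.01 and -2.13 with nintedanib, against -2.79, -2.71, -2.66 and -3.66 with B20 (1.07 ± 0.34). Eng, a TGF-beta co-receptor of endothelium, was at -0.46, 0.16, -0.63 and 0.08 with nintedanib, against -1.07, -1.14, -0.67 and -1.36 with B20 (0.85 ± 0.28). For all 3 genes every nintedanib array was above every B20 array. Their vehicle means lay close to the nintedanib means for Tie1 and Eng (nintedanib minus vehicle -0.03 and 0.05), while B20 minus vehicle was -1.10 and -0.80. Pecam1 (0.52 ± 0.19) and Clec14a (0.64 ± 0.24), surface proteins of all endothelium, were also without overlap, and Tek (0.72 ± 0.29), the angiopoietin receptor, and Sox18 (0.90 ± 0.38), an endothelial transcription factor, overlapped. After normexp correction, where all genes had a median of -0.16, these values were smaller, at 0.52 for Tie1, 0.28 for Pecam1, 0.25 for Clec14a, 0.11 for Tek and 0.53 for Sox18.

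Aplnr, the apelin receptor of sprouting endothelium, was at 0.39, -0.19, -0.68 and -0.81 with nintedanib, against -1.37, -1.29, -0.92 and -1.76 with B20, a difference of 1.01 ± 0.25 without overlap. Col4a1 and Col4a2, neighbouring genes for the collagen IV chains of the vessel basement membrane, differed by 0.81 ± 0.27 and 1.51 ± 0.42. The Notch ligand Dll4 (0.61 ± 0.26) and the endothelial receptor Notch4 (0.62 ± 0.27) were higher too, and only Dll4 had separate groups. After normexp correction Dll4 gave 0.10 and Notch4 0.38. Esm1, a tip cell proteoglycan that depends on VEGF, gave -2.93, -1, -1.12 and -2.26 with nintedanib, against -4.04, -1.68, -2.70 and -1.97 with B20, which overlap (0.77 ± 0.59). Both agents were below the vehicle arrays for Esm1 (0.31, -0.96 and 0.49), by -1.77 ± 0.64 with nintedanib and -2.54 ± 0.64 with B20. Angpt2, the destabilising angiopoietin, differed by 0.33 ± 0.29. Cxcr4, a chemokine receptor of tip cells and also of leukocytes, was the lowest of the 3 list members below 0, at -0.68 ± 0.21.

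**Figure D2:**
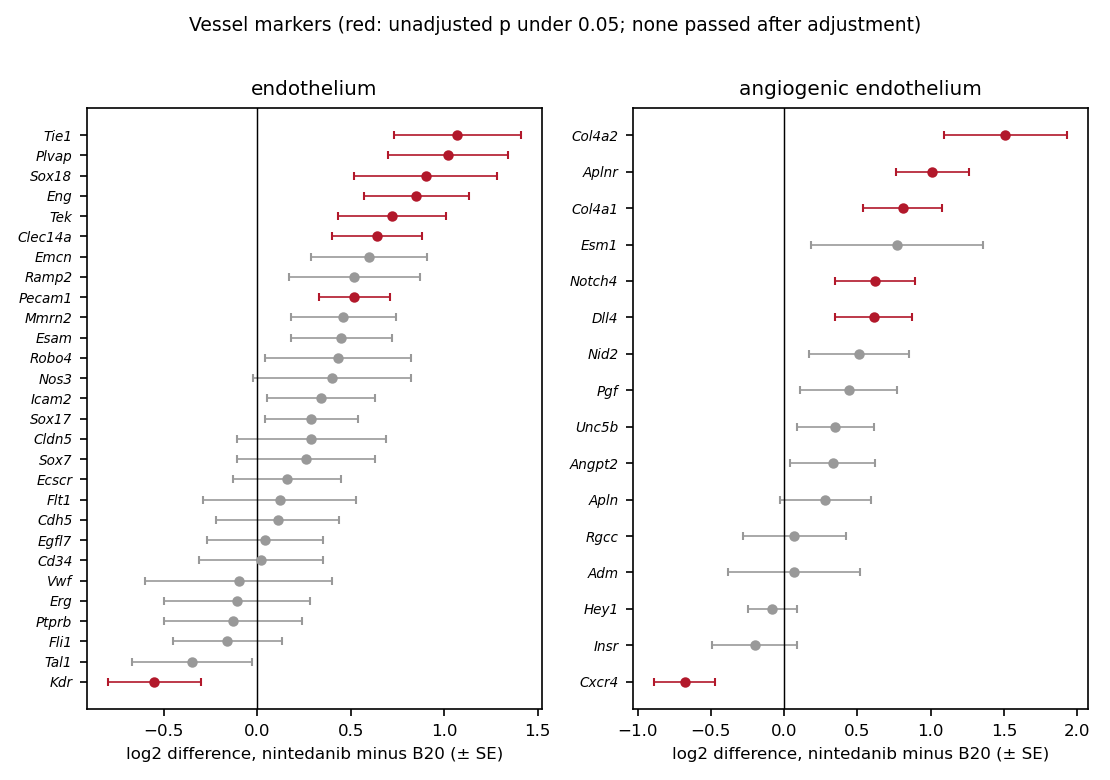
Log2 difference, nintedanib minus B20, ± SE of the fit (horizontal axes) for each measured endothelial gene (left, 28 genes) and each gene of angiogenic endothelium (right, 16 genes). Red points have an unadjusted p under 0.05. The 22 and 13 genes right of 0 outnumber those left of it, and Kdr and Cxcr4 are the red points on the left.

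Kdr itself went the other way from most vessel markers. Its brighter probe stood at 3.42, 2.93, 3.68 and 3.59 in nintedanib tumours and at 3.68, 4.08, 3.66 and 4.41 in B20 tumours, with an overlap and a difference of -0.55 ± 0.25 (unadjusted p = 0.0464). A second probe gave 0.18, so the direction for this gene is unsettled. Flt1, the decoy-like VEGF receptor, differed by 0.12 ± 0.41, and Flt4, the receptor of lymphatic endothelium, by 0.26 ± 0.83 at the edge of detection (2 of 4 arrays above background in each group). The co-receptors Nrp1 and Nrp2 differed by 0.69 ± 0.33 and 0.27 ± 0.26. Kit, the receptor of stem cell factor, which luminal progenitors and mast cells carry, was at 4.88, 4.56, 3.87 and 4.31 with nintedanib and at 3.49, 3.56, 4.05 and 4.20 with B20 (0.58 ± 0.26). Nintedanib replicate 3 was inside the B20 range.

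Receptors of the FGF, PDGF and other families had values on both sides of 0. Pdgfra, the receptor of fibroblasts, differed by 0.34 ± 0.22 and Pdgfrb, the receptor of pericytes, by -0.06 ± 0.24. Fgfr1 differed by 0.36 ± 0.31 (other probes -0.10 and 1.11), Fgfr2 by 0.09 ± 0.23, Fgfr3 by -0.34 ± 0.26 (another probe 0.23) and Fgfr4 by 0.21 ± 0.41. Csf1r, the receptor of macrophages, differed by 0.37 ± 0.21. The haematopoietic kinase genes Flt3 (0.03 ± 0.26), Lck (-0.12 ± 0.20) and Lyn (-0.04 ± 0.24) and Src (-0.54 ± 0.52) all differed by little more than their SE or less. Of the 17 receptors and kinases 11 were higher, with a median of 0.12 that was -0.08 after normexp correction. Under normexp the median of all genes was -0.16, but -0.02 and -0.01 in the classes of level around the list's median level of 0.27.

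Ligand genes were close between the agents. Vegfa, the target of B20, was at 2.79, 1.90, 1.04 and 1.45 in nintedanib tumours and at 2.28, 1.99, 1.94 and 0.96 in B20 tumours, and at 1.44, 0.44 and 1.36 in vehicle tumours. The ranges overlapped, the difference was 0.00 ± 0.43 (-0.34 on another probe), and both agents were 0.72 ± 0.46 above vehicle. Vegfd, a ligand of the lymphatic receptor, differed most in size (1.19 ± 0.64), with overlap. Vegfb (0.43 ± 0.30), Vegfc (0.19 ± 0.22), Pgf (0.44 ± 0.33), Pdgfd (0.74 ± 0.48), Pdgfb (0.09 ± 0.26), Fgf1 (0.11 ± 0.21), Fgf2 (0.22 ± 0.58), Fgf7 (0.03 ± 0.22) and Csf1 (0.23 ± 0.20) had positive differences. Pdgfa (-0.15 ± 0.17), Pdgfc (-0.14 ± 0.26), Fgf10 (-0.20 ± 0.76), Fgf18 (-0.46 ± 0.42) and Kitl (-0.41 ± 0.35), the gene of stem cell factor, had negative ones. None of the 16 ligand genes had an unadjusted p under 0.05 or separate groups.

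Genes that the FGF and ERK pathway induces, many of them its own brakes, had values on both sides of 0. Of 15 measured, 10 were higher with a median of 0.17. Spry1, which restrains receptor tyrosine kinases, was at 0.77, 1.16, 0.26 and 1.10 with nintedanib, against 0.26, 0.44, 0.36 and 0.05 with B20 (0.54 ± 0.22). Spred1, a related inhibitor, was lower without overlap (-0.54 ± 0.20). Dusp5, an ERK phosphatase, differed by 0.89 ± 0.36 and Ccnd1, the gene of cyclin D1, by 0.38 ± 0.17 without overlap. After normexp correction Dusp5 gave 0.21.

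Most stromal matrix genes had higher values with nintedanib. Of 21 measured fibroblast and matrix genes, 16 were higher, with a median of 0.31 (0.34 under quantile normalization). At an unadjusted p under 0.05, 5 were higher and 0 lower, beside 3.9% and 5.46% of all genes. The median was 0.11 within the slide with 3 arrays of each agent and 0.79 within the slide with 1 of each, and 0.16 without nintedanib replicate 3 and 0.18 without B20 replicate 4. The mean level of the list was 2.06 on nintedanib replicate 1, inside the B20 range of 1.94 to 2.60, and 2.76 to 2.92 on the other nintedanib arrays. Col6a2, a collagen VI chain, was at 0.15, 1.42, 0.07 and 1.74 in nintedanib tumours, against -0.43, -0.49, -0.01 and -0.93 in B20 tumours, a difference of 1.31 ± 0.39 without overlap. Its partner Col6a1 differed by 0.81 ± 0.32, Loxl1, which crosslinks elastin, by 0.97 ± 0.33, Col1a1 by 0.54 ± 0.23 and Thy1, a fibroblast surface protein, by 0.61 ± 0.28. Col3a1 stood out on the lower side at -0.37 ± 0.31. Vehicle levels of the list were nearer those of nintedanib, with a median of -0.01 for nintedanib minus vehicle and -0.26 for B20 minus vehicle.

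Among proteases of the matrix, Mmp2, a gelatinase of stromal cells, was at 0.27, 1.72, 0.83 and 1.49 with nintedanib, against 0.31, 0.39, 0.44 and -0.67 with B20 (0.96 ± 0.35). Only nintedanib replicate 1 was inside the B20 range. Timp2, its inhibitor and cofactor, differed by 0.65 ± 0.26, and Mmp12, a macrophage elastase, by -1.06 ± 0.52. Of the 18 protease and inhibitor genes 10 were higher (median 0.10). Of 15 pericyte and smooth muscle genes 10 were higher (median 0.17). Rgs5, a pericyte marker, differed by 0.82 ± 0.36 and Acta2, smooth muscle actin, by 0.76 ± 0.51, with 2.55 on the slide that holds 1 array of each agent and 0.17 on the slide that holds 3 of each. Lmod1, a smooth muscle actin nucleator, was at or near background in both groups (-1.09 ± 0.61).

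Interferon-stimulated genes, which cells switch on after type I or II interferon, mostly had higher values with nintedanib, and both agents stood above vehicle. Of 37 measured, 31 were higher than in B20 tumours, with a median of 0.25 (0.31 under quantile normalization). At an unadjusted p under 0.05, 4 were higher and 0 lower, beside 3.9% and 5.46% of all genes. Another count, of genes higher without overlap, was 5, beside 2.12% of all genes. The mean level of the list was 2.07 on nintedanib replicate 1 and 1.30 to 1.57 on the other nintedanib arrays, against 1.12 to 1.36 on the B20 arrays, and without nintedanib replicate 1 the median difference was 0.09. The median against vehicle was 1.63 with nintedanib and 1.2 with B20, and these contrasts share the vehicle arrays. To show what these genes share, stretches of the promoters of 3 members are printed from RefSeq (GRCm38.p6) in the direction of transcription, with the fixed letters of the interferon-stimulated response element in capitals. The element is GAAA, any 2 bases and GAAA, read as TTTC, any 2 bases and TTTC where it lies on the other strand.
Oas3 (chr5:120777695-120777764, minus strand): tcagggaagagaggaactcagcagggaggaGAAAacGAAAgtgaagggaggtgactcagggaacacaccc
Cxcl10 (chr5:92349063-92349132, minus strand): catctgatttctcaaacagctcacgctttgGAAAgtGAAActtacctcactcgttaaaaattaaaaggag
Trim30a (chr7:104465190-104465259, minus strand): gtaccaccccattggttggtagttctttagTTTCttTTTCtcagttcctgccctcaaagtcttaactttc
The element was found, on either strand, in 18 of the 31 list members with a promoter in the table and in 3.44% of all 32851 promoters of 300 bases. The median difference was 0.29 over the 18 members with it and 0.21 over the other 13.

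Oas3, an enzyme that makes the signal for RNA decay, was at -1.57, -2.34, -3.09 and -2.16 in nintedanib tumours, against -3.85, -3.19, -3.53 and -3.35 in B20 tumours (1.19 ± 0.64). Trim30a, a regulator of inflammatory signalling, was at 0.52, -0.38, -0.61 and -0.30 with nintedanib, against -0.87, -0.63, -0.83 and -0.92 with B20 (0.62 ± 0.28). In both genes the groups touched without overlapping, and the vehicle means were lower still, with arrays at -4.15, -5.72 and -3.84 for Oas3 and at -1.78, -2.17 and -2.09 for Trim30a. Cxcl10, a chemokine for T cells, differed by 0.83 ± 0.51, and Oasl1 (0.91 ± 0.39) and Oasl2 (1.06 ± 0.46), relatives of the Oas enzymes, by about the same. Tap1, the peptide transporter of antigen presentation, was at 0.19, 0.21, -0.46 and 0.38 with nintedanib and at -0.87, -0.27, -0.83 and -1.2 with B20 (0.88 ± 0.30), which overlap. Ubd, a ubiquitin-like protein, was the largest exception at -0.47 ± 0.29. Of 9 genes of MHC class II presentation 7 were higher (median 0.26), among them Cd74, the invariant chain, at 0.77 ± 0.24, while Ciita, the master regulator of the class, gave -0.45 ± 0.57. The MHC median ran from 0.14 without B20 replicate 4 to 0.42 without B20 replicate 1.

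**Figure D3:**
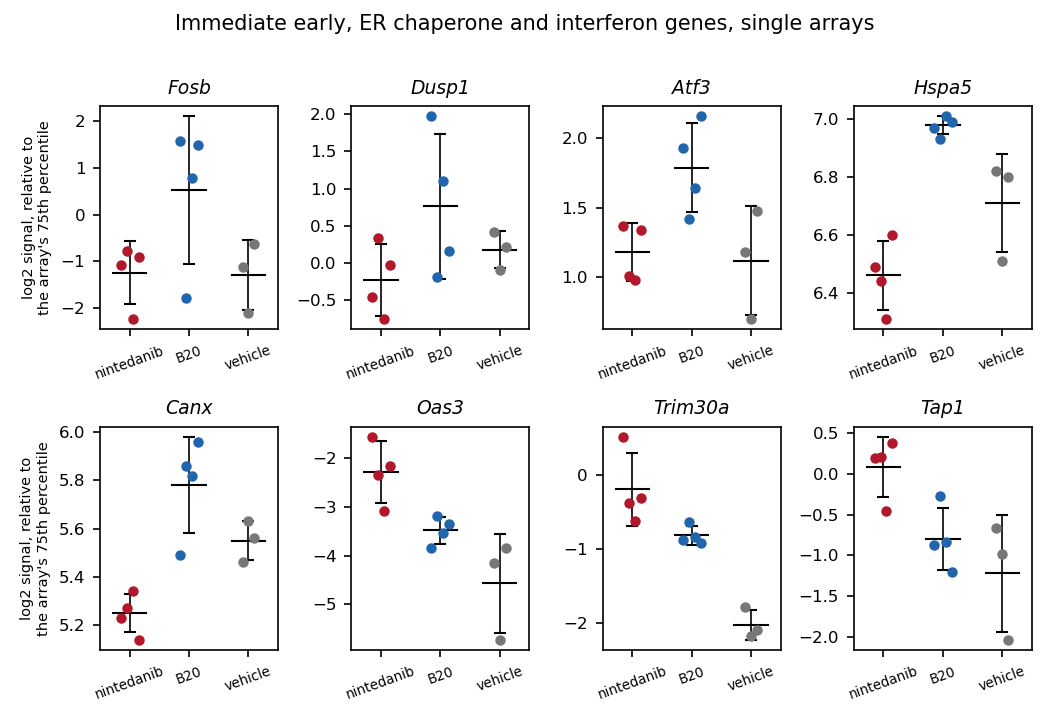
Log2 signal relative to each array's 75th percentile (vertical axes) for immediate early, ER chaperone and interferon genes in nintedanib (red), B20 (blue) and vehicle (grey) tumours. Each point is 1 array, and bars are mean ± SD. For Oas3 and Trim30a the means run nintedanib, B20, vehicle from high to low. B20 arrays enter the nintedanib range for Fosb (1 array), Dusp1 (2 arrays) and Tap1 (1 array).

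Immediate early genes, transcribed within minutes of growth factor or stress signals, mostly had lower values with nintedanib. Of 18 measured, 2 were higher and 16 lower, with a median of -0.36 (-0.33 under quantile normalization). At an unadjusted p under 0.05, 6 of the 18 were lower, beside 5.46% of all genes. The median was -0.17 without B20 replicate 1 and -0.20 without nintedanib replicate 3, and reached -0.54 with another array left out. Their median against vehicle was 0.08 with nintedanib and 0.42 with B20. Fosb was at -1.07, -0.77, -2.23 and -0.9 in nintedanib tumours, against 1.58, -1.78, 0.78 and 1.49 in B20 tumours (-1.76 ± 0.63), and Fos, its relative in AP-1, at 1.47, 2.03, 0.84 and 1.15 with nintedanib, against 4.02, 0.91, 2.87 and 2.12 with B20 (-1.11 ± 0.49). B20 replicate 2 was the low B20 array for both and lay inside the nintedanib range. Jun (-0.63 ± 0.29) and Dusp1 (-0.99 ± 0.43), a MAP kinase phosphatase, also had that array lowest. Klf6, a zinc finger factor, was at 4.26, 3.85, 4.44 and 4.13 with nintedanib, against 4.96, 4.62, 4.93 and 5.22 with B20 (-0.76 ± 0.20), and Atf3, a stress-induced repressor, at 1.37, 1.01, 0.98 and 1.34 with nintedanib, against 1.93, 1.42, 1.64 and 2.16 with B20 (-0.61 ± 0.20). These last 2 genes were without overlap. Jund, which is expressed more steadily than its relatives, was one of the 2 exceptions at 0.31 ± 0.18.

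Of the 16 immediate early genes with a promoter in the table, Dusp1 and Btg2 (-0.39 ± 0.21), an antiproliferative gene, hold the palindromic cAMP response element TGACGTCA, which 1.79% of all promoters hold. The stretches around it are shown with the element in capitals (RefSeq, GRCm38.p6).
Dusp1 (chr17:26508578-26508645, minus strand): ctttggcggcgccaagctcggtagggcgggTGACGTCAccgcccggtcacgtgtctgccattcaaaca
Btg2 (chr1:134079284-134079351, minus strand): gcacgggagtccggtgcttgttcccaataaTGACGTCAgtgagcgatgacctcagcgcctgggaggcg

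Chaperones of the endoplasmic reticulum (ER), which fold secreted and membrane proteins, included 3 genes whose nintedanib arrays were all below their B20 arrays. Canx and Hsp90b1 were chosen by their values, so this count of 3 gives no share to compare. The pattern held for 3.59% of all genes. In the highest of the 10 classes by level it held for 5.99%, and the median difference there was -0.25. Hspa5, the gene of BiP, was at 6.49, 6.44, 6.31 and 6.6 in nintedanib tumours, against 6.97, 6.93, 7.01 and 6.99 in B20 tumours (-0.52 ± 0.18). Canx, the lectin chaperone calnexin, was at 5.23, 5.27, 5.34 and 5.14 with nintedanib, against 5.49, 5.86, 5.82 and 5.96 with B20 (-0.54 ± 0.14). Hsp90b1, the gene of GRP94, differed by -0.45 ± 0.17. The ER stress response element (CCAAT, any 9 bases, CCACG) was found in 2 of the 21 members of the ER and amino acid stress list with a promoter, Hspa5 and Hsp90b1, and also in Canx, which is not in that list and was looked at after its value was seen. Its fixed letters are in capitals below, and 39 of the 32851 promoters (0.119%) hold on either strand (RefSeq, GRCm38.p6).
Hspa5 (chr2:34771995-34772073, plus strand): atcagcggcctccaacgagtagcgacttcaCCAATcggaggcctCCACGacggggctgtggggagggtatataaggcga
Hsp90b1 (chr10:86705608-86705686, minus strand): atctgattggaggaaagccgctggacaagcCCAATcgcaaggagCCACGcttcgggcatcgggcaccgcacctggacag
Canx (chr11:50325770-50325848, minus strand): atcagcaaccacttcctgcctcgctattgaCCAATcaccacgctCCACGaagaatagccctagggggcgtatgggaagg
Under quantile normalization the differences were smaller, at -0.24 for Hspa5, -0.37 for Canx and -0.20 for Hsp90b1. The list had 5 of 22 measured genes higher and a median of -0.08, which was 0.00 under quantile normalization. Atf4, the translation-controlled factor of the amino acid response, differed by -0.34 ± 0.13 (another probe 0.27), and Slc3a2, a chain of amino acid transporters, by 0.44 ± 0.19.

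Several inflammatory genes of myeloid cells had lower values with nintedanib. Il1b, the gene of interleukin-1 beta, was at -0.63, -0.46, -0.79 and -1.89 in nintedanib tumours, against 0.94, -0.16, 0.52 and 0.23 in B20 tumours, a difference of -1.33 ± 0.39 without overlap. The vehicle arrays lay at -1.27, -1.36 and -1.63, and the difference from vehicle was 0.48 ± 0.42 with nintedanib and 1.8 ± 0.42 with B20. S100a8, an alarmin of neutrophils, was at 3.91, 3.92, 4.53 and 2.98 with nintedanib, against 4.70, 5.4, 5.73 and 4.43 with B20 (-1.23 ± 0.37), and its partner S100a9 differed by -0.88 ± 0.72. Mmp8, the neutrophil collagenase, gave -1.58 ± 0.72 near background (-0.47 after normexp correction). The neutrophil list was mixed, with 5 of 14 higher and a median of -0.21, and Lcn2, which epithelium also makes, differed by 0.12 ± 0.19. Leaving out 1 array moved the neutrophil median between -0.34 and 0.01. Of 25 chemokine and interleukin genes 15 were higher (median 0.21, but 0.01 without nintedanib replicate 3). The chemokine Ccl4 was lower (-0.64 ± 0.27), but its groups touched, with the highest nintedanib array at -1.44 and the lowest B20 array at -1.43. Cxcl12, a stromal chemokine and the ligand of CXCR4, was higher without overlap (0.86 ± 0.32, and 0.26 on another probe).

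Lymphocyte lists had medians near 0, at 0.01 over 19 T and NK cell genes and 0.02 over 9 B and plasma cell genes. Foxp3, the factor of regulatory T cells, stood apart at -2.52, -2.93, -4.54 and -3.44 in nintedanib tumours, against -2.21, -1.59, -2.19 and -2.49 in B20 tumours (-1.24 ± 0.36). The groups nearly met, and the vehicle arrays (-2.70, -2.21 and -1.90) lay mostly with B20. After normexp correction Foxp3 gave -0.75. Pou2af1, a B cell coactivator, differed by 0.77 ± 0.27 (0.34 after normexp) and Jchain, of secreted antibody, by -1.22 ± 0.66. Cd79b, a chain of the B cell receptor, differed by 0.06 ± 0.33, and Zap70, a T cell kinase, by 0.33 ± 0.22. Of 7 mast cell and eosinophil genes 5 were higher, with a median of 0.57 that was 0.11 without nintedanib replicate 3 and 0.09 after normexp correction, and Tpsb2, a tryptase, gave -0.48 ± 0.31 on its brightest probe and 1.04 on another. Macrophage markers were balanced, with 9 of 17 higher, a median of 0.08 and -0.43 ± 0.25 for Aif1.

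Genes of mitochondria and ribosomes, which lie at the top of the signal range, had lower values with nintedanib under the scaling used here and smaller differences under quantile normalization. In the highest of 10 equal classes of genes by level, the median difference was -0.25, with -0.26 under median scaling and -0.19 after normexp correction, against -0.02 both under quantile normalization and in the authors' table. In the cytosolic ribosome, all 75 measured protein genes were lower (median -0.43, 41 at an unadjusted p under 0.05, beside 5.46% of all genes). The median was -0.37 with 0 higher after normexp correction, but -0.05 with 20 higher under quantile normalization. Rps12 gave -0.53 ± 0.19, and -0.13 under quantile normalization. The list's median was thus near 0 under quantile normalization and not under the percentile scalings.

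**Figure D4:**
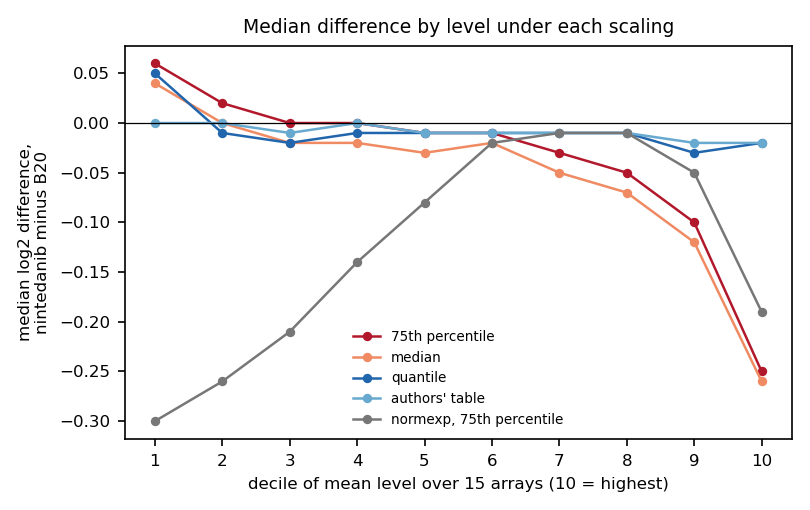
Median log2 difference, nintedanib minus B20 (vertical axis), in each of 10 equal classes of genes by mean level over 15 arrays (horizontal axis, 10 is the highest), under 5 ways of scaling. The 75th percentile and median lines drop to -0.25 and -0.26 in the highest class, where the quantile line and that of the authors' table are at -0.02.

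The respiratory chain had lower values under both scalings. Of 37 complex I genes 1 was higher, with a median of -0.36, and 3 were higher with a median of -0.16 under quantile normalization. Ndufa2, an accessory subunit, differed by -0.59 ± 0.20 (-0.33 under quantile normalization), and Ndufa10 was the one higher gene at 0.30 ± 0.34. Complexes III, IV and V had 5 of 37 higher and a median of -0.32 (-0.11 under quantile normalization, with 13 higher), with Cox7b at -0.54 ± 0.20 and Atp5d at 0.12 ± 0.20. The mitochondrial ribosome had 12 of 75 higher and a median of -0.23 (-0.14), with Mrpl33 at -0.61 ± 0.19 and Mrpl38 at 0.45 ± 0.21. Against vehicle, the complex I median was -0.14 with nintedanib and 0.23 with B20. Within the slide that holds 1 array of each agent the complex I median was -0.05, and within the slide with 3 of each it was -0.46. In the same order the medians were 0.01 and -0.44 for complexes III, IV and V, and 0.01 and -0.32 for the mitochondrial ribosome. Without B20 replicate 2 the median was -0.23 for complex I, -0.21 for complexes III, IV and V and -0.11 for the mitochondrial ribosome.

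Of 24 genes of fatty acid oxidation and ketone bodies, 3 were higher, and the median was -0.28 (-0.17 under quantile normalization). It was 0.06 within the slide with 1 array of each agent and -0.36 within the slide with 3 of each. At an unadjusted p under 0.05, 1 was lower, beside 5.46% of all genes, and 6 had all nintedanib arrays below all B20 arrays, beside 3.59%. Etfa, which carries electrons from fatty acid oxidation, differed by -0.56 ± 0.21 (another probe 0.13), Cpt1b, the muscle form of the gatekeeper enzyme, by -1.47 ± 1.08, and Bdh1, of ketone body use, by 0.09 ± 0.22. Of 13 regulators of mitochondrial number 4 were higher (median -0.14). Tfb2m, a mitochondrial transcription factor, differed by -0.45 ± 0.16 without overlap, Polrmt, its polymerase, by 0.33 ± 0.19 and Ppargc1a, the coactivator PGC-1alpha, by 0.33 ± 0.34. The 28 genes of the TCA cycle had a median of -0.15 (0.17 within the slide with 1 array of each agent, -0.23 within the other). Fh1 (fumarase) gave -0.31 ± 0.17 and Suclg2, of succinate synthesis, 0.21 ± 0.26. Of 17 oxidative stress genes 4 were higher (median -0.19), with Gsr, glutathione reductase, at -0.43 ± 0.14 and Gclm, of glutathione synthesis, at 0.57 ± 0.34.

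Glycolysis and hypoxia genes had values on both sides of 0. The 25 glycolytic genes had 11 higher and a median of -0.06, which turned to 0.13 under quantile normalization. Hk2, the inducible hexokinase, was at 0.73, -0.02, -0.54 and -0.02 with nintedanib, against 1.14, 0.07, 0.93 and 0.42 with B20 (-0.60 ± 0.51). Slc2a1, the glucose transporter GLUT1, differed by -0.13 ± 0.24, Ldha, lactate dehydrogenase, by -0.29 ± 0.16 (0.10 under quantile normalization), Pdk1, which shuts pyruvate out of mitochondria, by -0.10 ± 0.18 and Pfkp, a phosphofructokinase, by 0.60 ± 0.28. Car9, the carbonic anhydrase most used as a hypoxia marker, was at 3.19, 2.11, 1.88 and 1.83 with nintedanib, against 2.21, 2.52, 1.19 and 1.34 with B20 (0.44 ± 0.39). The groups overlapped for Hk2 and Car9. Of 29 hypoxia genes 10 were higher (median -0.16, and -0.08 under quantile normalization), from Ndrg1 at -0.51 ± 0.22 to Tmem45a at 0.60 ± 0.34.

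Epithelial genes had small differences. The 17 luminal genes had a median of 0.04 and the 12 basal genes one of 0.04, while Muc1, a surface mucin, gave 0.85 ± 0.34 (0.41 after normexp) and Elf5, the factor of alveolar differentiation, -0.47 ± 0.16. Milk genes had 3 of 11 higher (median -0.19), with Lalba, alpha-lactalbumin, at -0.68 ± 0.25 and Xdh, of milk fat secretion, at 0.60 ± 0.32. Itga6, a basal integrin, differed by -0.42 ± 0.18. The 38 cell cycle genes had a median of -0.03 and none at an unadjusted p under 0.05, with Rrm2, of nucleotide synthesis, at -0.42 ± 0.23 and Tpx2, of the spindle, at 0.39 ± 0.28, and the 25 genes of lipid synthesis had a median of 0.06, from Hmgcs1 at -0.46 ± 0.21 to Lss at 0.33 ± 0.19. Outside the epithelium, 7 of 9 nerve and Schwann cell genes were higher (median 0.37). Sox10, which mammary progenitors also express, was at 0.75 ± 0.26 and Ncmap, of myelin, at -0.35 ± 0.27. As for the angiogenic list, the mean level of this list did not overlap, at 0.35 to 0.58 on nintedanib arrays and -0.21 to 0.21 on B20 arrays. Vehicle arrays spanned 0.05 to 0.39, and 0 of the 9 genes had separate groups.

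Markers of tissue around the tumour varied widely between arrays of each group. The mean level of 23 skeletal muscle genes ran from -1.78 to 1.25 on nintedanib arrays and from -1.6 to 3.95 on B20 arrays, with 2 genes higher and a median of -0.84, and Ckm, muscle creatine kinase, differed by -1.25 ± 1.56 and Actn2, a muscle actinin, by 0.28 ± 1.42. The muscle median turned to 0.21 without B20 replicate 1 and was -1.77 without B20 replicate 4. The 16 adipocyte genes ran from 0.25 to 2.91 on nintedanib arrays and from 0.51 to 2.47 on B20 arrays. Their median of -0.20 was -1.17 within the slide with 3 arrays of each agent and 2.48 within the slide with 1 of each, and Adipoq, the gene of adiponectin, and Fabp4, a fat cell lipid carrier, turned the same way (-1.71 and 2.99 for Adipoq, -1.60 and 1.95 for Fabp4). The median of the 7 erythroid genes (-0.19) turned likewise, at -1.08 and 2.44, with Hba-a1, a globin, at 0.07 ± 0.82 and Slc4a1, the anion exchanger, at -0.19 ± 0.29. The 8 brown fat genes had a median of -0.59 and the 9 skin genes one of -0.32, with the epidermal keratins Krt2 at -0.75 ± 0.28 and Krt1 at 0.35 ± 0.73. Cox7a1, of muscle and brown fat (-0.96 ± 0.70), Myh7, slow myosin (-0.91 ± 0.47), Pnpla2, a fat lipase (0.56 ± 0.37), and Cpt1b above belong to these tissues, and the part of muscle and fat in the lower mitochondrial genes was not tested. Of 5 lymphatic genes 4 were higher (median 0.19), with Lyve1, also of some macrophages, at 1.02 ± 0.72 and Pdpn, also of fibroblasts, at -0.03 ± 0.27.

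**Figure D5:**
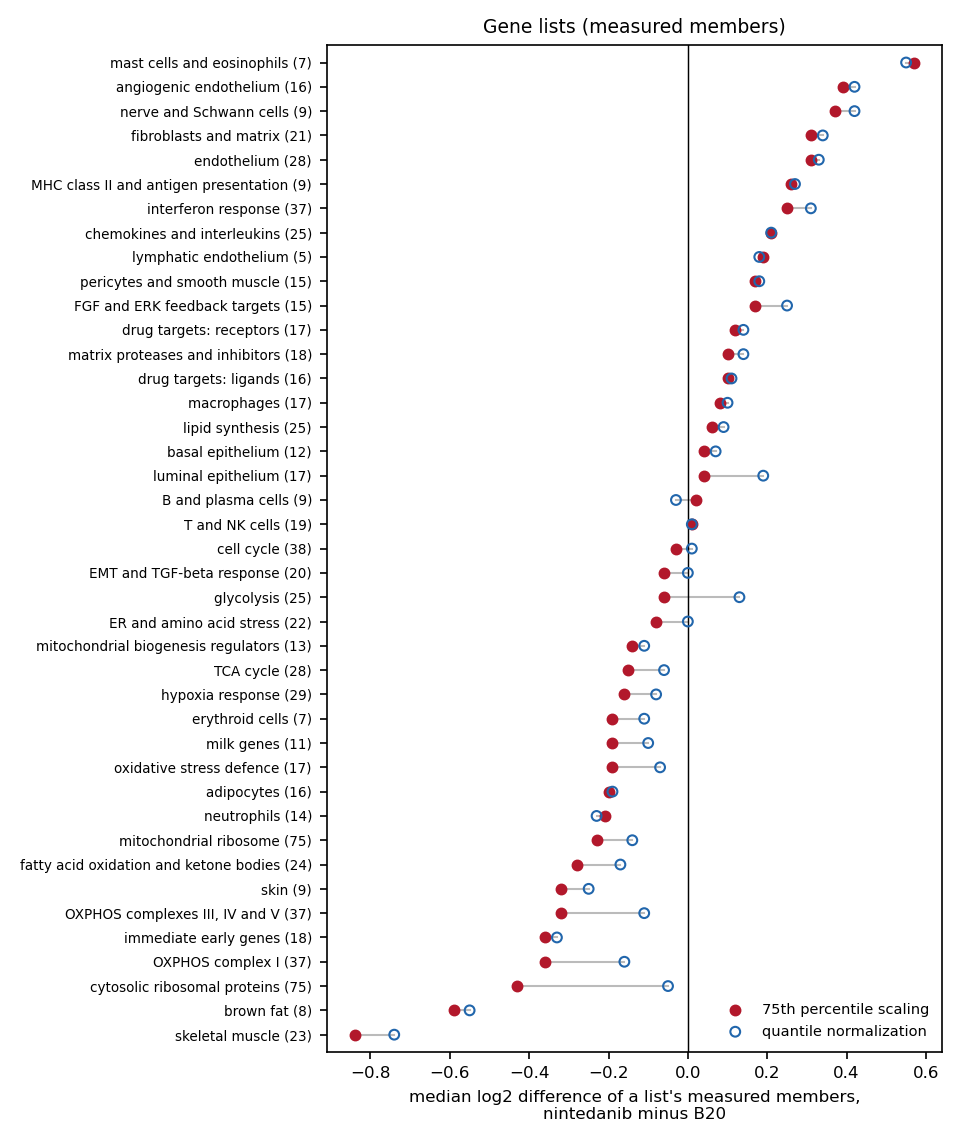
Median log2 difference, nintedanib minus B20 (horizontal axis), of the measured members of each of 41 gene lists (vertical axis, number of measured members in brackets), with 75th percentile scaling (red) and with quantile normalization (blue rings). Vessel, fibroblast and interferon lists lie right of 0 under both, the immediate early list lies left of 0 under both, and the ribosomal list moves from -0.43 to -0.05.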

How the data were processed

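Scanner output of 15 Agilent 1-colour arrays was used. Per the file headers, Feature Extraction subtracted the background and detrended each array, and the deposited values are spot intensities (processed signal) not normalized between arrays. Deposited flags, other values of 0 or 1, mark spots well above background, outlier and control spots. How the authors' table of log2 values was made is not stated. Set against the scanner values, it matched normexp (offset 50) with quantile normalization (median r 0.99992), has column medians of 6.616 to 6.627, is not centred by gene, and its higher values are brighter spots.

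Control and outlier spots were left out, spots of a probe averaged (55681 probes, with 82 probe values whose spots were all outliers replaced by the probe's mean, none in a named gene), and log2 signals scaled by subtracting each array's 75th percentile. Probes well above background on at least 3 arrays were kept, and the brightest probe per gene was used. Probes were named through RefSeq (GRCm38.p6): 26056 of 55681 got a symbol. Median raw signals were 55 to 102 against local backgrounds of 19 to 26, and the number of arrays limits the precision.

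limma 3.58.1 in R 4.3.3 (lmFit, eBayes) fitted 4 group means to 15 arrays. Tests were two-sided, with Benjamini-Hochberg adjustment over 28070 genes. The fit was also run on simulated arrays with independent noise and known differences larger than most seen here. Such a run checks the code and cannot show how brightness or tissue content shared between genes affects the fit. The folds of Zfp385b, Smim6 and Vmn1r234 divide the bright group by the dim one, after raising each dim array to its lowest signal well above background where the probe was below it. For Zfp385b and Vmn1r234 this left the fold unchanged. These folds depend on the background correction and are not lower bounds. The planned normexp alternative used the median in place of the mean spot signal, which the files do not hold.

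The members and the 41 gene lists were chosen with earlier results of these data known. Named genes are the 12 with the lowest p in each direction, all drug targets, for each other list the lowest p in each direction, and 18 fixed genes; other named genes were chosen after their values were seen (Tie1, Tek, Eng, Sox18, Pecam1, Clec14a, Col4a1, Col4a2, Dll4, Notch4, Col6a1, Col1a1, Loxl1, Thy1, Fos, Fosb, Jun, Dusp1, Atf3, Btg2, Oas3, Oasl1, Oasl2, Trim30a, Cxcl10, Itgav, Timp2, Mmp8, Hsp90b1, Atf4, Dusp5, Ccnd1, Ccl4, Krt8, Krt18, Epcam and Cpt1b). Figures were drawn with matplotlib.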

Additional observations from a re-analysis of the deposited data

Results flagged for a closer look

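In the nintedanib and B20 groups of 4 arrays each, 354 sets of gene levels and 82 sets of list means were searched for 1 array far from the other 3, and 19 were found, where chance flags about 1 in 20 groups. Among nintedanib arrays, replicate 2 was high for Flt1 (1.27, others 0.25 to 0.35), Tie1 (-1.28, others -2.14 to -2.01), Notch4 (-0.19, others -1.01 to -0.90), the mean of matrix proteases (-0.28, others -0.92 to -0.84) and the mean of milk genes (4.64, others 2.72 to 2.89). It was low for Gsr (3.35, others 3.51 to 3.52), and high for the dim Lmod1 (-5.23, others -7.15 to -7.06). Replicate 3 was high for Zfand5 (4.06, others 3.91 to 3.92) and Tfb2m (1.99, others 1.53 to 1.58), and low for Fgfr4 (-3.71, others -2.80 to -2.64) and Oasl1 (1.52, others 2.39 to 2.53). Replicate 4 was high for Pou2af1 (-1.04, others -1.72 to -1.66), and replicate 1 was low for the mean of pericyte genes (-0.73, others -0.28 to -0.24).

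Among B20 arrays, replicate 2 was high for Sec14l1 (-0.10, others -0.92 to -0.82) and low for Ptp4a2 (4.63, others 4.88 to 4.93) and Jun (4.26, others 5.35 to 5.56). Replicate 4 was high for Fbxo33 (0.81, others 0.31 to 0.35) and low for Mmp2 (-0.67, others 0.31 to 0.44) and Tie1 (-3.66, others -2.79 to -2.66).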

How the results depend on the processing

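Of 177 named genes, 141 kept their sign under all 29 alternatives, and 98 of 5122 values had the opposite sign; the cause was not tested. The count of genes past the adjusted threshold was 0 in all alternatives except 2, where an unnamed transcript near background (well above it on 3 nintedanib and 0 B20 arrays, difference 2.1 ± 0.35 by limma) passed: with the 8 arrays alone (1 gene, adjusted p = 0.0445) and without vehicle replicate 1 (1 gene, adjusted p = 0.00501). Leaving out 1 array gave 0 to 1 such genes, 545 to 1535 higher and 609 to 2100 lower at an unadjusted p; without nintedanib replicate 2 the counts were 545 and 609, and without B20 replicate 4, 836 were lower. Normexp correction gave 3150 lower, and 316 higher and 2367 lower without overlap; median scaling gave 466 higher, 381 lower and 343 higher without overlap; no filter on dim probes gave 2668 lower without overlap. Array weights gave 1934 higher and 2570 lower, the slide with 3 and 3 arrays alone 702 lower, and brightness as a covariate (chosen after seeing the data) 390 and 579. Same-numbered arrays correlated at -0.15, 0.01, -0.24 and 0.10 in their deviations, within the -0.25 to 0.21 of differently numbered arrays. So few values cannot decide whether the numbers pair the arrays. The numbers do follow the slides, since replicate 4 of each agent lay on a different slide from replicates 1 to 3. The replicate block gave 0 calls, 909 higher and 791 lower. Normexp moved the median of all genes to -0.16, and by level from -0.30 in the dimmest class to -0.01 in classes 7 and 8. A turned sign under normexp is thus not always a turn relative to genes of like level. Signs as computed turned with normexp for Smim6 (-0.06), Flt4 (-0.25), Fgfr2 (-0.03), Fgfr4 (-0.08), Flt3 (-0.14), Fgf2 (-0.20), Fgf7 (-0.07), Pdpn (0.01), Actn2 (-0.41), Krt1 (-0.28) and Cd79b (-0.07). Signs turned with quantile normalization for Ldha (0.10) and Krt18 (0.26), and with median scaling for Vegfa (-0.01). In the authors' table they turned for Ldha (0.09), Pdpn (0.02), Actn2 (-0.26), Krt1 (0.00) and Krt18 (0.27). They turned with the mean of probes for Vegfa (-0.17), Fgf1 (-0.09), Pdpn (0.23) and Tpsb2 (0.28); with array weights for Flt3 (-0.04), Vegfa (-0.04), Fgf7 (-0.03), Actn2 (-0.51), Hba-a1 (-0.03) and Cd79b (-0.18); on the slide with 3 and 3 arrays for Flt3 (-0.05), Lyn (0.13), Vegfa (-0.16), Fgf1 (-0.04), Ndufa10 (-0.02), Atp5d (-0.05), Actn2 (-0.30), Hba-a1 (-1.08) and Cd79b (-0.03). With brightness as a covariate they turned for Flt4 (-0.50), Pdgfrb (0.15), Fgfr4 (-0.08), Flt3 (-0.06), Vegfa (-0.05), Fgf2 (-0.05), Fgf10 (0.51), Kitl (0.03), Suclg2 (-0.05), Bdh1 (-0.21), Tpx2 (-0.03), Pdpn (0.05), Col3a1 (0.16), Tpsb2 (0.16), Fabp4 (0.05), Krt1 (-0.73), Slc4a1 (0.13), Adipoq (0.88), Krt18 (0.03) and Epcam (-0.03). Leaving out 1 array turned Pdgfb (-0.02 to 0.21), Fgf10 (-0.68 to 0.22), Pdpn (-0.17 to 0.12), Krt1 (-0.09 to 0.84), Ckm (-2.3 to 0.21), Fgfr2 (-0.02 to 0.19), Flt3 (-0.12 to 0.22), Fgf7 (-0.07 to 0.10), Actn2 (-0.83 to 1.58), Pdk1 (-0.25 to 0.02), Cd79b (-0.21 to 0.22), Pdgfrb (-0.22 to 0.08), Lyn (-0.18 to 0.06), Hba-a1 (-0.83 to 0.69), Vegfa (-0.33 to 0.26), Bdh1 (-0.03 to 0.18), Flt1 (-0.12 to 0.22) and Slc2a1 (-0.29 to 0.08). List medians that turned when 1 array was left out include adipocytes (-0.76 to 0.24), erythroid cells (-0.88 to 0.24), skin (-0.4 to 0.05), skeletal muscle (-1.77 to 0.21), lymphatic endothelium (-0.17 to 0.86) and glycolysis (-0.14 to 0.08). Dim probes such as Zfp385b and Smim6 are limited by signal over background.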
